A study of Mus musculus with 8 samples.

Results

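The genes of cholesterol and fatty acid synthesis were followed through RNA sequencing of mouse regulatory T (Treg) cells. The set held 31 of the 53465 gene identifiers measured. Its rule named the genes by their known function and used no measured value, but it was written with earlier results of these data known. It comprised 4 regulators (Srebf1, Srebf2, Insig1 and Scap), 7 genes of the mevalonate steps (Acat2, Hmgcs1, Mvk, Pmvk, Mvd, Idi1 and Fdps), 9 genes of the sterol steps (Fdft1, Sqle, Lss, Cyp51, Msmo1, Nsdhl, Hsd17b7, Sc5d and Dhcr7), 3 genes of sterol movement (Stard4, Abca1 and Abcg1) and 8 genes of fatty acid synthesis (Acly, Acaca, Fasn, Scd1, Scd2, Elovl6, Fads1 and Fads2). All 31 were found by symbol.

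Brg1, encoded by Smarca4, is the ATPase of the BAF chromatin remodeling complex, and the study deleted it in Treg cells and then restored it in some of them. There were 8 libraries, 1 per condition, from spleen and lymph nodes of C57BL/6 mice aged 3 to 4 weeks, and every animal carried the R26 CAG-FlpoER recombinase. In the total Treg experiment the WT library came from Brg1 F/+ Foxp3 YFP-Cre/+ mice. The Brg1-expressing and Brg1-deleted libraries of mosaic females came from Brg1 F/ΔR animals, with the genotype of the cells given as Foxp3 +/+ and Foxp3 YFP-Cre. The untreated rKO1 library came from Brg1 F/ΔR Foxp3 YFP-Cre/YFP-Cre mice, in which Brg1 is deleted in all Treg cells and inflammation develops. Another 2 libraries came from rKO1 mice on Day 7 after tamoxifen (TAM), which activates FlpoER and turns the trapped allele ΔR back into a working one in part of the cells. Those cells lose GFP, so GFP+ cells stayed Brg1-deleted and GFP- cells reexpressed Brg1 (Brg1 F/+). In a separate experiment, 2 libraries were made from activated Treg (aTreg) cells of TAM-treated rKO1 mice, sorted in the same way. Cre was driven by the Foxp3 locus, so that the cells named WT had also lost a copy of Brg1, and the mosaic libraries came from females only because Foxp3 is X-linked. How many animals went into a library is not given in the sources used here.

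Cholesterol is made from acetyl-CoA through mevalonate, isoprenoids, squalene and lanosterol. The transcription factors SREBP-2 (Srebf2) and SREBP-1 (Srebf1) are bound to Scap and held in the endoplasmic reticulum by Insig1 when sterols are plentiful. When sterols fall they are carried to the Golgi, cleaved, and then turn on sterol and fatty acid synthesis genes together with the factor NF-Y. Excess sterol is sensed by the LXR receptors, which turn on the exporters Abca1 and Abcg1. Isoprenoids and sterols are needed by dividing lymphocytes, and mevalonate metabolism is known to be needed for Treg cell function.

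The promoters show the sequence that most of these genes share. RefSeq promoter windows on GRCm38.p6, from 250 bases before to 50 bases after each start, were held for 23 of the 31 genes in 29 windows. A CCAAT box, the NF-Y site, searched on both strands, stood in 18 of the 29 windows (62.1%), against 37.4% of all 32851 windows. The sterol regulatory element core, TCAC, any base and CCAC, stood in 1 of them, that of Hmgcs1, against 1.24% of all windows. The LXR direct repeat, AGGTCA, any 4 bases and AGGTCA again, stood in 0 of 29 windows. A match is a run of letters and not a measured site. The stretches below are shown because Hmgcs1 holds the only sterol element match and Mvk the most CCAAT matches (5), Hsd17b7 is a sterol enzyme among the genes that differed most, and Fasn stands for the fatty acid branch, in which 2 of the 5 genes with a window, Fasn and Acly, held the box. They lie upstream of the start at chr13:119690101-119690350 (plus strand) for Hmgcs1, chr5:114444079-114444268 (plus) for Mvk, chr1:169969245-169969385 (minus) for Hsd17b7 and chr11:120824548-120824657 (minus) for Fasn. Each is written 5′ to 3′ on the strand of its gene. Capitals mark CCAAT, its reverse complement ATTGG, and in Hmgcs1 also TCACCCCAC, the sterol regulatory element core at -137 to -129. In Fasn a CCAAT and an ATTGG overlap.
Hmgcs1: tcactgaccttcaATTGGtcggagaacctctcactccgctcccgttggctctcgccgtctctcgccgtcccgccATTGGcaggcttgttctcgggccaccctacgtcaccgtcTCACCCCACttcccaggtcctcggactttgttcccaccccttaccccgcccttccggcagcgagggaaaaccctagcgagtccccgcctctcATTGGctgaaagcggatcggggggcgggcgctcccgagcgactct
Mvk: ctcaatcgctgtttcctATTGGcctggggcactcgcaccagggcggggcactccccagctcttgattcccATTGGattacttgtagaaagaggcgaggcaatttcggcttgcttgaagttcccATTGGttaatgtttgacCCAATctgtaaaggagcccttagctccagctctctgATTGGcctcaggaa
Hsd17b7: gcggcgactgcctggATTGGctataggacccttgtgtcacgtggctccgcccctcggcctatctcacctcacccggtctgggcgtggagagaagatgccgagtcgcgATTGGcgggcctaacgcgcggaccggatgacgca
Fasn: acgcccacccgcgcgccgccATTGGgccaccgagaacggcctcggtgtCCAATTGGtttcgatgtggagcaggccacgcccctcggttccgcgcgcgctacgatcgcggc

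Between 16294214 and 24049461 reads on genes were recovered per library, so 1 read was worth 0.0412 to 0.0603 CPM, the usual unit of reads scaled to library size. Levels below are FPKM, fragments scaled by exon length and library size, rescaled between the libraries of an experiment by TMM, a scaling that sets most genes equal. A gene was compared when it reached 5 CPM in either library, and called when the libraries differed at least 2-fold. With 1 library per condition there is no replicate check and no test, and each 95% interval (exact Clopper-Pearson) covers counting error only. Smarca4 stood at 13.6 FPKM in WT, at 11.9 and 7.29 in the Brg1-expressing and Brg1-deleted mosaic libraries, at 6.80 in untreated rKO1 and, after TAM, at 5.57 in the deleted and 8.97 in the reexpressed library. In aTreg cells it went against the labels, with 11.0 FPKM in the library labelled Brg1-deleted and 9.17 in that labelled Brg1-reexpressed (0.83-fold, interval 0.77 to 0.90). The first of these carries a WT heading on its values and an F/F genotype in its description, so the aTreg libraries are called by their labels. The paper describes the trapped allele as still making a fusion that holds the first part of Brg1. Whole-gene levels of Smarca4 therefore do not measure the functional transcript alone. Foxp3, which defines Treg cells, was detected in all 8 libraries, from 13.6 to 134 FPKM. Over the 8 libraries, 4 B cell markers summed to 11.9 to 91.4 CPM, 4 plasma cell markers to 5.62 to 86.2 CPM and 4 markers of CD8 T or NK cells to 6.96 to 31 CPM. Y-linked genes had 0 reads in the WT and mosaic libraries and were present in the other 5, so that sex and genotype cannot be told apart between those sets. All 5 of these are labelled Foxp3 YFP-Cre/YFP-Cre, which for an X-linked gene describes females, and the Y-linked reads go against it, while the study's methods count males with a single YFP-Cre allele as rKO1 mice too. Xist, made from the inactive X, was at 0.523 CPM in untreated rKO1, 51.0 and 45.5 CPM in the deleted and reexpressed libraries after TAM, and 12.3 and 42.4 CPM in the aTreg libraries labelled Brg1-deleted and Brg1-reexpressed. Within bulk RNA, fewer cells that use a gene and less RNA of it per cell cannot be told apart either.

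The clearest difference among the 31 genes lay between the rKO1 libraries after TAM. The enzymes of the mevalonate and sterol steps were higher in Brg1-reexpressed than in Brg1-deleted cells, all 15 of the 15 compared, with a median of 0.96 on the log2 scale against 0.07 over all 10316 genes compared. At least 2-fold higher were 8 of the 26 genes of the set that could be compared and 0 were at least 2-fold lower. Over all genes 7.14% were called higher and 5.62% lower, 12.8% in all. The 8 were Mvk, Idi1, Fdft1, Sqle, Cyp51, Msmo1, Hsd17b7 and Stard4, of which 7 are enzymes and Stard4 is a carrier of sterol between membranes. The enzymes of fatty acid synthesis did not share the difference, with 3 of 5 higher, 2 lower and 0 called. These genes, and all others here, were scaled to the bulk of the genes. Scaled by total reads alone, the median of all genes in this comparison moved by -0.36 and the share of calls that were higher went from 56.0% to 22.9%, while 14 of the 15 enzymes were still higher, Acat2 was lower (-0.09), and 2 genes were called, Mvk (1.07) and Idi1 (1.01).

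**Figure D1:**
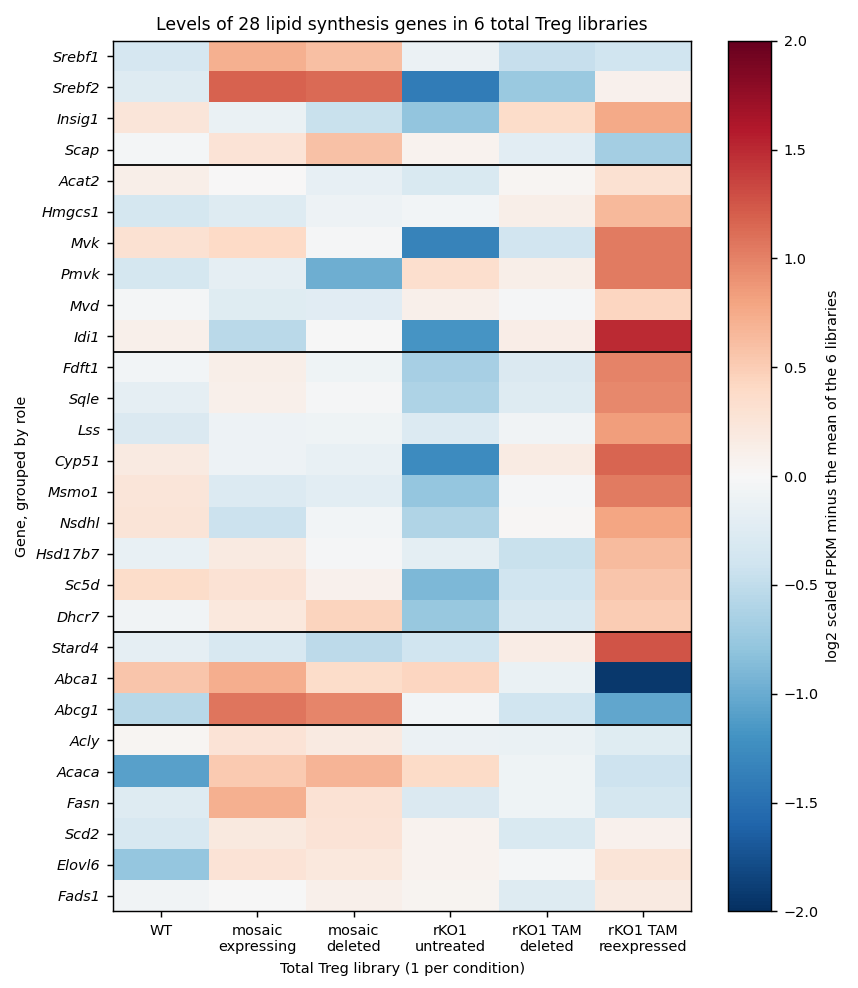
Each row is 1 of the 28 genes of the set with 5 CPM in any total Treg library and each column 1 of the 6 libraries; the color is the log2 of the scaled FPKM minus the mean of that gene over the 6 libraries. The mevalonate and sterol enzymes were highest in the Brg1-reexpressed library (15 of 15), and 10 of the 15 were lowest in untreated rKO1.

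Among the mevalonate steps, Mvk, the kinase that phosphorylates mevalonate (chr5:114444269-114460591), was at 3.83 FPKM in WT, 4.08 in the Brg1-expressing and 3.06 in the Brg1-deleted mosaic library, 1.23 in untreated rKO1, 2.39 in deleted and 6.41 in reexpressed cells after TAM. The reexpressed library was the highest and untreated rKO1 the lowest, and the difference after TAM was 2.68-fold (interval 2.16 to 3.36, from 117 and 287 reads). Idi1, which isomerizes the isoprenoid unit (chr13:8885501-8892451), was at 2.25, 1.44, 2.09, 0.925, 2.30 and 5.93 FPKM in the same order of libraries. It shared that order at its ends, with 2.57-fold (2.12 to 3.14) more in reexpressed than in deleted cells. Of the other 5 mevalonate genes, Acat2, Hmgcs1, Pmvk and Mvd were 1.20- to 1.89-fold higher with intervals above 1, the most for Pmvk, which went from 23.4 to 44.3 FPKM. Fdps, the farnesyl diphosphate synthase, had 13 to 50 reads per total Treg library and was too low to compare. Of its exon bases 26.7% are shared with a gene on the other strand, whose part in its low reads was not tested.

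Of the sterol steps, 9 of 9 genes were higher in the reexpressed library, with a median of 1.01 on the log2 scale, and 5 of them were called. Fdft1, squalene synthase (chr14:63145150-63179578), was at 7.37, 8.32, 7.21, 4.86, 6.30 and 15.3 FPKM in WT, the Brg1-expressing and Brg1-deleted mosaic libraries, untreated rKO1, and the deleted and reexpressed libraries after TAM. That is 2.42-fold (2.17 to 2.70) between the last 2, although 18.3% of its exon bases are shared with Ctsb on the other strand and the library kit does not mark strand. Sqle, the squalene epoxidase (chr15:59315077-59331192), was at 1.90, 2.29, 2.12, 1.41, 1.80 and 4.19 FPKM, or 2.32-fold (1.95 to 2.79) higher. Both of these genes lead into the sterol branch, and in both the reexpressed library stood alone above the other 5.

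Cyp51, lanosterol demethylase (chr5:4081145-4104746), was at 4.04, 3.35, 3.25, 1.49, 4.00 and 8.05 FPKM across the same libraries, a 2.01-fold difference after TAM (1.75 to 2.31) that lay at the limit for a call. Msmo1, the sterol C4-methyl oxidase (chr8:64718139-64733792), was at 6.69, 4.65, 4.89, 3.31, 5.53 and 11.6 FPKM, or 2.10-fold (1.91 to 2.32) higher. Hsd17b7, the 3-keto reductase of the same demethylation (chr1:169949535-169969241), was at 1.28, 1.61, 1.39, 1.24, 1.04 and 2.20 FPKM, or 2.12-fold (1.65 to 2.74) higher from 97 and 188 reads. Unlike the others it was lowest in the deleted library after TAM, not in untreated rKO1. The remaining enzymes Lss, Nsdhl, Sc5d and Dhcr7 were 1.70- to 1.95-fold higher with intervals above 1, under the limit for a call.

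**Figure D2:**
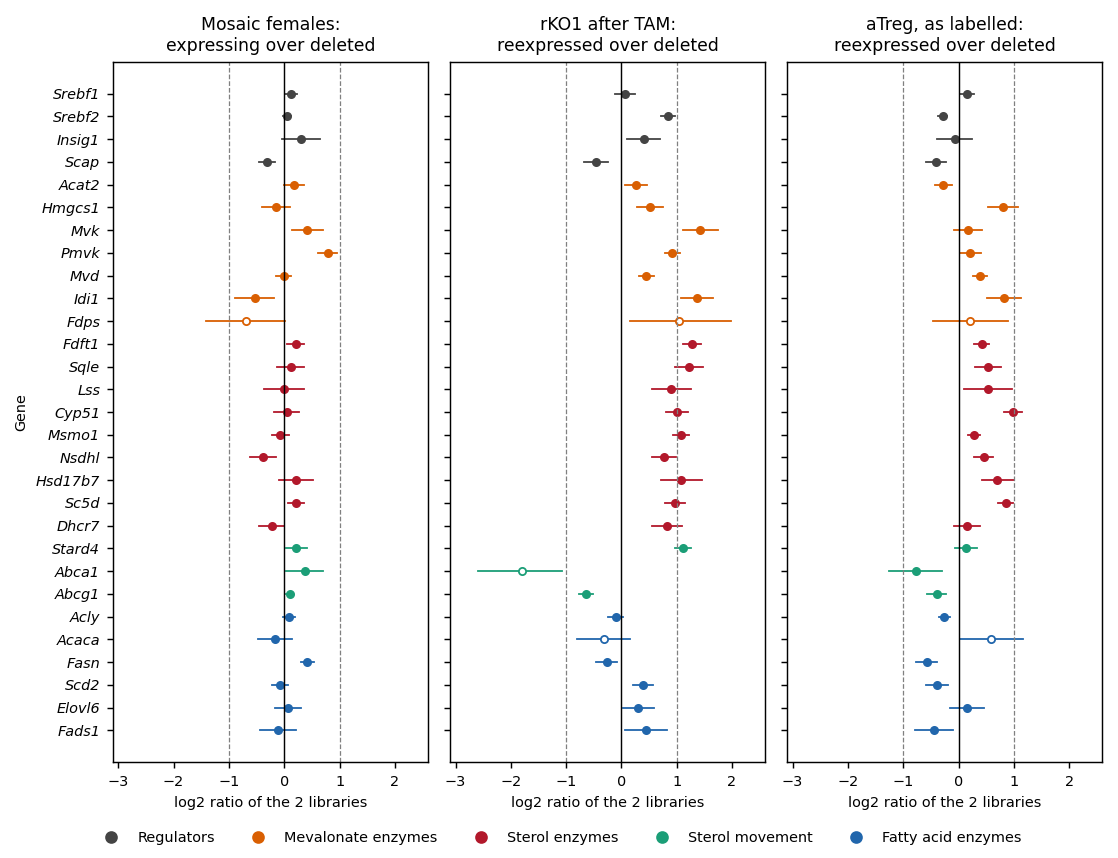
Each dot is the log2 ratio of a gene between the 2 libraries of a comparison (left to right mosaic, rKO1 after TAM and aTreg), with its 95% counting interval as a bar, for 29 genes without the sparse Scd1 and Fads2. Open circles are genes under 5 CPM in both libraries, dashed lines mark 2-fold, and past the right line in the middle panel lie 8 compared genes, 0 in the others.

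The regulators moved less. Srebf2 was at 12.2 FPKM in WT, 33.0 and 31.8 in the Brg1-expressing and Brg1-deleted mosaic libraries, 5.53 in untreated rKO1, and 8.67 and 15.5 in the deleted and reexpressed libraries after TAM. It was 1.79-fold (1.64 to 1.96) higher in reexpressed cells, under the limit for a call, and both mosaic libraries stood above all the others. Srebf1 was at 5.43, 11.3, 10.4, 6.35, 5.0 and 5.21 FPKM, so the libraries after TAM differed by 1.04-fold with an interval of 0.92 to 1.18, and by -0.29 on the log2 scale when scaled by total reads. Insig1, itself a target of SREBP, was at 2.83, 2.18, 1.77, 1.39, 3.09 and 4.07 FPKM, or 1.32-fold (1.07 to 1.62) higher in reexpressed cells. Scap was at 3.70, 4.61, 5.71, 4.00, 3.28 and 2.39 FPKM, the 1 regulator that was lower there, at 0.73-fold (0.63 to 0.85), with 13.2% of its exon bases shared with a gene on the other strand. Neither Insig1 nor Scap was called.

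Sterol movement went in opposite directions. Stard4 was at 4.26, 3.86, 3.33, 3.64, 5.34 and 11.5 FPKM, or 2.16-fold (1.95 to 2.40) higher in the reexpressed than in the deleted library after TAM. Abcg1, a sterol exporter, was at 7.80, 24.1, 22.5, 11.0, 8.66 and 5.55 FPKM and so lowest in reexpressed cells, at 0.64-fold (0.59 to 0.70) of deleted ones. Abca1, the other exporter, was at 0.646, 0.729, 0.564, 0.591, 0.400 and 0.115 FPKM. With 76 and 20 reads it was under 5 CPM in both libraries after TAM and was not counted as called, at 0.29-fold (0.17 to 0.48). The summed level of 7 myeloid marker genes, a cell type rich in these exporters, was 113 CPM in the deleted and 49.7 CPM in the reexpressed library and ranged from 117 to 407 CPM in the other 4. Of the 6 of these genes compared after TAM, 5 were at least 2-fold lower in reexpressed cells (Lyz2, Cd68, Adgre1, S100a8 and S100a9), Itgam was at most at 1.13 CPM in the 6 libraries, and S100a9 was at 0 reads in Brg1-expressing mosaic cells. Their part in the levels of the exporters was not tested.

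**Figure D3:**
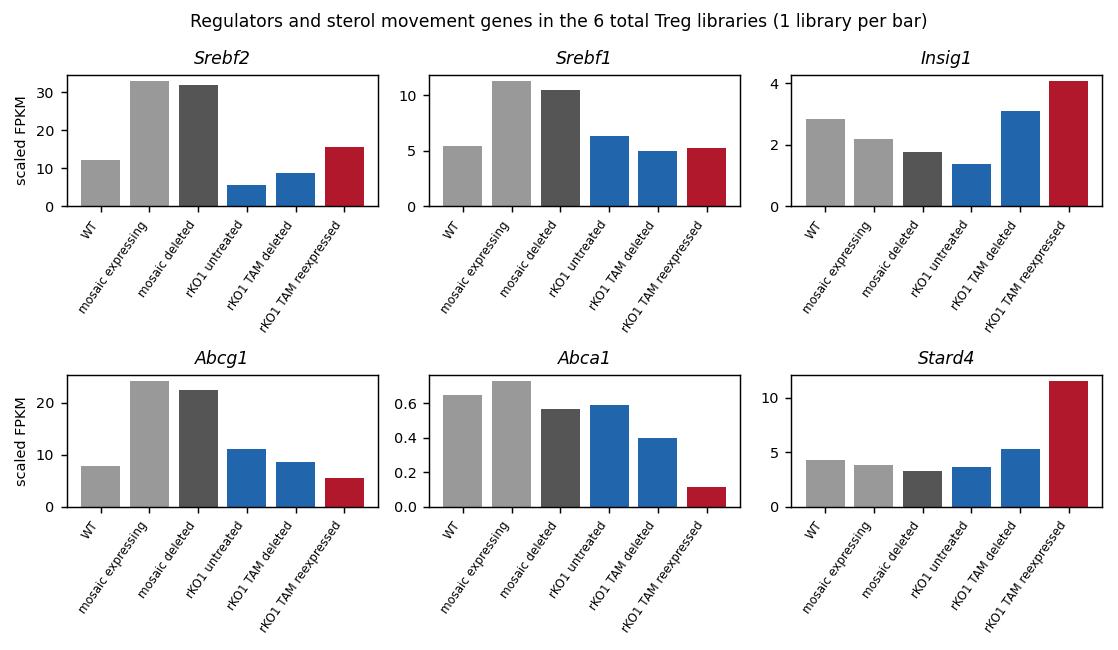
Bars give the scaled FPKM of Srebf2, Srebf1, Insig1, Abcg1, Abca1 and Stard4 in the 6 total Treg libraries, 1 library per bar and each axis from 0, in grey for WT and mosaic cells, blue for Brg1-deleted rKO1 and red for Brg1-reexpressed rKO1 cells. Srebf2 reached 33.0 and 31.8 in the mosaic libraries, and Stard4 11.5 and Abca1 0.115 in the reexpressed one.

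The fatty acid genes stayed nearly level after TAM. Scd2, a stearoyl-CoA desaturase, was 1.32-fold (1.16 to 1.49), Fads1, the delta-5 desaturase, 1.36-fold (1.04 to 1.77) and Elovl6, which elongates palmitate, 1.24-fold (1.02 to 1.5) higher in reexpressed cells, the last of these lower (-0.05 on the log2 scale) when scaled by total reads. Fasn, the fatty acid synthase, was 0.83-fold (0.73 to 0.94) and Acly, which supplies cytosolic acetyl-CoA to both pathways, 0.93-fold (0.84 to 1.02) as high. Acaca, the acetyl-CoA carboxylase, was under 5 CPM in both libraries. Scd1 had 0 to 23 reads and Fads2 0 to 4 reads in every total Treg library, and both were too low to compare in all 3 main comparisons. Summed over the 8 genes, the fatty acid enzymes gave 127 CPM in deleted and 130.2 CPM in reexpressed cells, where the 16 mevalonate and sterol enzymes gave 285 and 531 CPM.

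**Figure D4:**
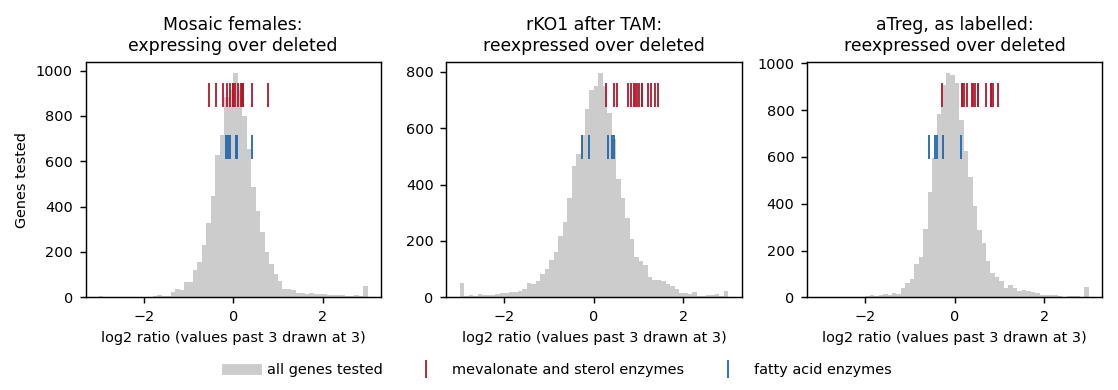
Histograms of the log2 ratio of all genes compared in the mosaic, rKO1 and aTreg comparisons, with ratios past 3 drawn at 3 and ticks for the mevalonate and sterol enzymes in red and for the fatty acid enzymes in blue. In the rKO1 panel all 15 red ticks lie above 0, with a median of 0.96 against 0.07 for all genes.

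The differences can also be set against those between libraries of like Brg1 status, WT against Brg1-expressing mosaic cells and deleted rKO1 cells after TAM against untreated ones. After TAM, 16 of 26 genes of the set (61.5%) differed by more than in both of these pairs, against 41.8% of all genes compared. The deleted library after TAM enters both this comparison and 1 of the pairs.

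Other genes of sterol metabolism, listed apart from the 31, showed no common direction. Of 16 compared after TAM, 8 were higher and 8 lower in reexpressed cells with a median of 0.09, and 2 were at least 2-fold higher and 2 at least 2-fold lower. The higher ones were Ebp, the sterol isomerase (62.3 to 132 FPKM), and Lbr, a sterol reductase of the nuclear envelope (16.6 to 36.3 FPKM). The lower ones were Mylip, an LXR target that degrades the LDL receptor (4.68 to 1.68 FPKM), and Nr1h3, which encodes LXR-alpha (3.02 to 1.26 FPKM). Scaled by total reads, 0 were called higher and 3 lower. Of 12 other fatty acid genes 10 were higher and 2 lower, with a median of 0.41 on the log2 scale. The 1 called was Mid1ip1, an activator of acetyl-CoA carboxylase, which was higher (3.51 to 9.15 FPKM). Of 10 genes of fatty acid oxidation 7 were higher and 3 lower, with a median of 0.38. Among these Pparg, a lipid-sensing receptor, was called lower (2.77 to 0.708 FPKM). Myeloid markers were lower in reexpressed cells too (113 to 49.7 CPM), and their part in the levels of Nr1h3 and Pparg was not tested.

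After TAM, cell cycle genes were higher in reexpressed than in deleted cells, as the sterol enzymes were. In what follows the first count is of the 15 mevalonate and sterol enzymes, the second of 14 cell cycle genes. Untreated rKO1 had 12 and 6 lower than Brg1-expressing mosaic cells, and 11 and 11 lower than WT. Reexpressed cells had 15 and 14 higher than WT, and 15 and 14 higher than Brg1-expressing mosaic cells. Deleted cells after TAM had 12 and 12 higher than untreated ones, and 9 and 13 higher than deleted mosaic cells. Brg1-expressing mosaic cells had 8 and 12 higher than deleted ones, and WT 7 and 10 higher than Brg1-expressing mosaic cells. The aTreg library labelled Brg1-reexpressed had 14 enzymes and 13 cell cycle genes higher. The summed level of 14 such genes was 1105 CPM in WT, 816 and 713 CPM in the mosaic libraries, 843 CPM in untreated rKO1, and 1134 and 2725 CPM in deleted and reexpressed cells after TAM. In the last comparison 14 of 14 were higher and 9 were called, with a median of 1.19 on the log2 scale. On total reads, 14 of 14 were still higher and 5 called. Other lists moved in this comparison too. Stress genes went from 2157 CPM in deleted to 1187 CPM in reexpressed cells, with 5 of 6 lower and Jun and Atf3 called lower. Jchain, a plasma cell marker, and Ncr1 were called lower in reexpressed cells, and Cd79b and Ctla4 higher. The part of all these genes in the sterol enzyme difference was not tested.

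**Figure D5:**
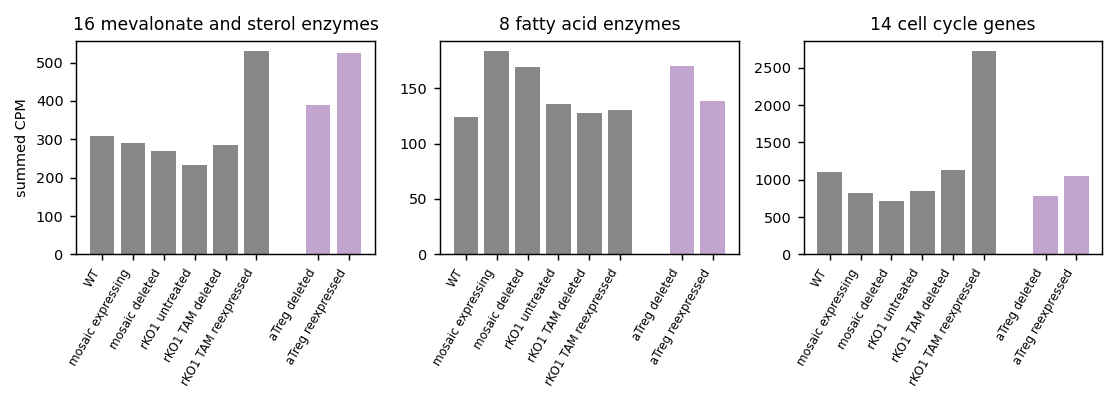
Summed CPM of the 16 mevalonate and sterol enzymes, the 8 fatty acid enzymes and 14 cell cycle genes in the 8 libraries, in grey for total Treg and purple for aTreg cells, which were scaled separately. The reexpressed library was highest for the sterol enzymes (531 CPM) and the cell cycle genes (2725 CPM) and not for the fatty acid enzymes (130.2 CPM).

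In mosaic females, where Brg1-expressing and Brg1-deleted Treg cells share a healthy animal, the same genes differed little. The sort gate stated in the methods takes YFP+ cells, whereas the Brg1-expressing cells are labelled Foxp3 +/+ and would lack YFP, so how they were gated is not given in the sources used here. Of the 28 compared, 0 were called in either direction, where 4.03% of all 10066 genes were called higher and 2.09% lower, 6.12% in all. The median was 0.08 on the log2 scale, against 0.03 over all genes. The mevalonate and sterol enzymes split into 8 higher and 7 lower in Brg1-expressing cells, with a median of 0.04 that became -0.09 when scaled by total reads. Pmvk stood farthest out at 1.73-fold (1.53 to 1.95) higher in Brg1-expressing cells. It was the 1 gene of 28 (3.57%, against 33.0% of all genes) that exceeded the difference in both pairs of like Brg1 status. The Brg1-expressing mosaic library enters both this comparison and 1 of those pairs. Mvk was 1.33-fold (1.10 to 1.62) higher. Idi1 was lower, at 0.69-fold (0.54 to 0.88), as was Nsdhl at 0.77-fold (0.66 to 0.90). Among the 28, the interval lay above 1 for 9, below 1 for 4 and held 1 for 15.

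The regulators were level between the mosaic libraries too. Srebf2 differed by 1.04-fold (0.99 to 1.09), Srebf1 by 1.08-fold (1.0 to 1.17) and Insig1 by 1.23-fold (0.97 to 1.57), while Scap was at 0.81-fold (0.73 to 0.89). Abcg1 differed by 1.07-fold (1.03 to 1.12) and Abca1 by 1.29-fold (1.02 to 1.63). When scaled by total reads, 7 of the 28 genes changed sign, Srebf1 (-0.02 on the log2 scale), Srebf2 (-0.08), Abcg1 (-0.03), Acly (-0.04), Elovl6 (-0.07), Sqle (-0.02) and Cyp51 (-0.09). Fasn was 1.34-fold (1.23 to 1.46) higher in Brg1-expressing cells, and the fatty acid enzymes split into 3 higher and 3 lower, or 1 higher and 5 lower when scaled by total reads. Of the other lists, 0 of 15 sterol genes, 0 of 9 genes of fatty acid oxidation and 0 of 14 cell cycle genes were called. Of 15 other fatty acid genes, Mid1ip1 was called higher in Brg1-expressing cells, at 4.51 against 0.794 FPKM. Of 6 Treg markers, Foxp3 was called higher in Brg1-expressing cells. Stress genes summed to 817 CPM in Brg1-expressing and 513 CPM in Brg1-deleted cells, with 4 of 5 higher and 0 called. The part of these lists in the mosaic values was not tested.

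What set the mosaic libraries apart was their level against WT. Compared with Brg1-expressing mosaic cells, 5 of 28 genes were at least 2-fold lower in WT cells and 0 higher, where 5.15% of all genes were called lower and 4.18% higher, 9.33% in all. These were Srebf2 (0.37-fold, 0.34 to 0.40), Srebf1 (0.48-fold, 0.43 to 0.53), Abcg1 (0.32-fold, 0.30 to 0.35), Acaca (0.33-fold, 0.23 to 0.47) and Elovl6 (0.48-fold, 0.39 to 0.60). With the FPKM as deposited, 3 of the 5 were called. All 6 fatty acid enzymes compared were lower in WT, with a median of -0.74 on the log2 scale, while 4 of 9 sterol enzymes were higher and 5 lower. The WT library also held more myeloid marker RNA (407 against 120 CPM), and its summed level of 8 stress genes, such as Fos and Jun, was 4418 against 817 CPM. Its erythroid markers summed to 444 against 135 CPM, with 2 of 2 called higher, and its Treg markers to 1302 against 2299 CPM, with 5 of 6 lower and Foxp3 called. Their part in these differences was not tested.

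Untreated rKO1 cells, deleted for Brg1 in diseased animals, had the lowest level for 12 of the 28 genes and for 10 of the 15 mevalonate and sterol enzymes, where 20.1% of all 11041 genes compared in the 6 libraries were lowest there. Under scaling by total reads it was 8 of the 15. Against WT, 7 of 28 genes were at least 2-fold lower and 1 higher, where 7.1% of all genes were called lower and 8.61% higher, 15.7% in all. The lower ones were Mvk (0.32-fold, 0.24 to 0.43), Cyp51 (0.37-fold, 0.30 to 0.46), Idi1 (0.41-fold, 0.30 to 0.56), Sc5d (0.42-fold, 0.36 to 0.48), Srebf2 (0.45-fold, 0.41 to 0.51), Insig1 (0.49-fold, 0.37 to 0.65) and Msmo1 (0.50-fold, 0.44 to 0.56). Acaca was the higher one, at 2.77-fold (1.94 to 4.04). Scaled by total reads, the median of all genes moved by 0.31 and 2 genes were called lower and 2 higher. Against Brg1-expressing mosaic cells, 6 of 28 were at least 2-fold lower and 0 higher, where 9.11% of all genes were called lower and 8.19% higher, 17.3% in all. Here Srebf2 was the farthest out, at 0.17-fold (0.15 to 0.18), followed by Mvk, Sc5d, Cyp51, Abcg1 and Fasn. With total-read scaling the median of all genes moved by 0.37, the higher share of all calls went from 47.3% to 77.9%, and 2 of the 6 were still called, Srebf2 and Mvk. Of the 9 sterol enzymes, 8 were lower than in WT and 9 lower than in the mosaic cells, and 7 each time when scaled by total reads. Other lists moved too. Between WT and untreated rKO1, the 8 stress genes went from 4418 to 781 CPM with 5 of 6 called lower, B cell markers from 73.9 to 11.9 CPM with 2 of 2 called lower, and myeloid markers from 407 to 117 CPM with Lyz2 called lower and Csf1r higher. Plasma cell markers went from 14.8 to 34.1 CPM with 2 of 2 called higher. Treg markers went from 1302 to 1974 CPM, with Foxp3 and Ikzf2 called higher and Cd3e lower. Against the mosaic cells, 3 of 4 myeloid and 2 of 2 plasma cell markers were called higher, 2 of 2 B cell markers lower, and Foxp3, Cd4 and Cd3e lower. Their part in these differences was not tested.

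The deleted cells of TAM-treated rKO1 mice were above those of untreated mice for most enzymes. At least 2-fold higher were 3 of 28 genes, Idi1 (2.49-fold, 1.84 to 3.41), Cyp51 (2.68-fold, 2.18 to 3.32) and Insig1 (2.22-fold, 1.70 to 2.93), and 0 were lower, where 2.16% of all genes were called higher and 2.26% lower, 4.42% in all. Of the 15 enzymes 12 were higher, with a median of 0.37 on the log2 scale. For those 12, deleted cells of TAM-treated mice lay between untreated deleted cells and reexpressed cells. Stress genes went from 781 CPM in untreated to 2157 CPM in TAM-treated deleted cells with Fos, Jun, Junb and Atf3 called higher, and S100a8, S100a9 and Ncr1 were called higher and Csf1r lower. Xist was called higher and Kdm5d and Uty lower. Of 14 cell cycle genes 12 were higher and 0 called, with a median of 0.47 on the log2 scale. The part of all these genes in the enzyme difference was not tested. Against the deleted cells of mosaic females, 1 of 28 was called higher, Pmvk (2.13-fold, 1.89 to 2.40). Called lower were 3, Srebf2 (0.27-fold, 0.25 to 0.30), Abcg1 (0.39-fold, 0.36 to 0.41) and Srebf1 (0.48-fold, 0.43 to 0.53). Over all genes 7.27% were called higher and 6.05% lower, 13.3% in all. Other lists moved here too, with 5 of 14 cell cycle genes called higher and 0 lower. Of 6 stress genes 4 were called higher and 1 lower, and of 6 myeloid markers 5 higher and 1 lower. Their part was not tested.

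Reexpressed cells stood above the Brg1-sufficient libraries as well. The 15 mevalonate and sterol enzymes were highest there of all 6 libraries, 15 of 15, where 26.6% of all genes were highest there, and 12 of 15 under scaling by total reads. Against WT, 7 of 27 genes were called higher and Abca1 lower, where 9.75% of all genes were called higher and 7.37% lower, 17.1% in all. The higher ones were Stard4 (2.71-fold), Idi1 (2.63-fold), Pmvk (2.61-fold), Sqle (2.20-fold), Lss (2.19-fold), Fdft1 (2.07-fold) and Elovl6 (2.05-fold). Under total-read scaling, the higher share of all calls went from 56.9% to 45.8%, and Stard4, Idi1 and Pmvk were still called higher and Abca1 lower. Stress genes went from 4418 in WT to 1187 CPM with 6 of 6 called lower, myeloid markers from 407 to 49.7 CPM with 3 of 4 called lower, and cell cycle genes from 1105 to 2725 CPM with 10 of 14 called higher, and their part was not tested. Against Brg1-expressing mosaic cells, 6 of 28 were called higher and 5 lower, where 10.8% of all genes were called higher and 10.9% lower, 21.8% in all. Idi1 (4.11-fold, 3.30 to 5.16), Stard4, Msmo1, Cyp51, Pmvk and Nsdhl were the higher ones, and Abca1, Abcg1 (0.23-fold, 0.21 to 0.25), Srebf1, Srebf2 and Fasn the lower ones. Srebf2 at 0.47-fold (0.44 to 0.50) was thus lower beside higher sterol enzymes. Cell cycle genes went from 816 CPM in Brg1-expressing mosaic cells to 2725 CPM in reexpressed cells. Of these, 14 of 14 were higher and 10 called, and their part was not tested. These comparisons share libraries with each other and with the one after TAM, and are set side by side only.

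In aTreg cells 0 of 27 genes were called, where 4.4% of all 10035 genes were called higher and 2.03% lower, 6.44% in all, and the median of the set was 0.16 on the log2 scale against -0.06 over all genes. The sterol enzymes were nonetheless higher in the library labelled Brg1-reexpressed, 9 of 9, as were 5 of 6 mevalonate genes, with a median of 0.46 over the 15. Cyp51 was just under the limit at 1.97-fold (1.76 to 2.21), from 5.72 to 11.3 FPKM. Sc5d followed at 1.80-fold (1.64 to 1.98), Idi1 at 1.76-fold (1.43 to 2.19), Hmgcs1 at 1.75-fold (1.45 to 2.11) and Hsd17b7 at 1.63-fold (1.33 to 2.0). For the genes called in total Treg cells the values in the libraries labelled deleted and reexpressed were 4.82 and 5.43 FPKM for Mvk, 2.14 and 3.78 for Idi1, 10.1 and 13.5 for Fdft1, 2.53 and 3.64 for Sqle, 11.7 and 14.2 for Msmo1, 1.71 and 2.78 for Hsd17b7, and 3.91 and 4.28 for Stard4. Whole-gene Smarca4 was not higher in the library labelled Brg1-reexpressed, so these directions follow the labels and not a measured gain of Brg1.

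Of the 4 regulators 3 were lower in the aTreg library labelled Brg1-reexpressed, 2 of them with an interval below 1, and 0 were called. Srebf2 was at 18.5 FPKM in the library labelled Brg1-deleted and 15.1 in that labelled Brg1-reexpressed (0.82-fold, 0.77 to 0.87), Scap at 4.21 and 3.16 (0.75-fold, 0.66 to 0.85) and Insig1 at 3.11 and 2.96 (0.95-fold, 0.77 to 1.18). Srebf1 was at 8.82 and 9.77 FPKM (1.11-fold, 1.01 to 1.21). Abcg1 was at 5.02 and 3.81 FPKM (0.76-fold, 0.68 to 0.85) and Abca1 at 0.529 and 0.309 FPKM (0.58-fold, 0.42 to 0.81). Of 5 fatty acid enzymes compared, 4 were lower and Elovl6 higher, with Fasn at 0.67-fold (0.59 to 0.77), and Acaca was too low to compare. Among other sterol genes Nr1h3 was called higher (4.18 to 10.2 FPKM) and Mylip lower (8.44 to 3.77 FPKM) of 16, and Pparg (0.651 to 2.77 FPKM) and Cd36, a fatty acid receptor (0.236 to 1.80 FPKM), were called higher of 11 genes of fatty acid oxidation. Of 14 other fatty acid genes 0 were called.

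The aTreg libraries also differed in markers of other cell types. Erythroid marker genes summed to 699 CPM in the library labelled Brg1-deleted and 11511 CPM in that labelled Brg1-reexpressed, with 4 of 4 called higher, and ranged from 122 to 578 CPM in total Treg libraries. Myeloid markers summed to 473 and 697 CPM, with Adgre1 called higher. Plasma cell markers summed to 24.5 and 86.2 CPM, with Jchain called higher. All 5 sex-linked genes were called, Xist higher and Ddx3y, Kdm5d, Eif2s3y and Uty lower in the library labelled Brg1-reexpressed. The 6 Treg markers summed to 2277 and 1662 CPM, and 1 of them, Cd3e, was called lower in the library labelled Brg1-reexpressed. Cell cycle genes summed to 780 and 1044 CPM, with 13 of 14 higher and 3 called. The part of these lists in the sterol enzyme difference, and in the levels of Nr1h3, Pparg and Cd36, was not tested.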

How the data were processed

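RNA was sequenced from sorted Treg cells in 8 libraries, 1 per condition. The authors deposited 1 FPKM value per gene and library. The submitters' processing notes name HISAT2 2.0, StringTie 1.3.3b, featureCounts 1.5.0-p3 and mm10. FPKM was multiplied by merged exon length (GENCODE M21, GRCm38) and library total to recover reads. Values became whole (within 0.05 of a read) in every library for 93.6% of 26020 genes with reads in total Treg and 100.0% of 21242 in aTreg cells, and for 1651 more with another length. Of the 31 genes, 25 used the annotated length and 6 another (Srebf2, Abcg1, Scd1, Scd2, Fads1 and Fads2). Of 53465 identifiers, 53274 carried a symbol.

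TMM, written anew in Python, set the scale over all libraries of an experiment, trimming 30% of ratios and 5% of levels (Python 3.11.15, NumPy 2.4.6, pandas 2.3.3, SciPy 1.17.1), and was tested on simulated data. Figures used matplotlib 3.10.9. Log2 ratios used a prior of 0.125 reads, and 3 reads or fewer counted as the floor. The design assumed that reads could be recovered, and no model or p-value was used, since no condition was replicated. Groups came from the sample titles. There were 10 comparisons. Named were all 31 genes, with every library for genes called in a main comparison (mosaic, rKO1 after TAM, aTreg), the 4 regulators and the exporters, and listed genes that were called or checked a label. The genes and lists were chosen with earlier results of these data known. Some listed genes are not reported here and were left out of the counts. Other scalings, filters, offsets and fold limits were tried. Promoters and gene positions came from RefSeq (GRCm38.p6) and GENCODE M21. No promoter window was held for Fdps, Fdft1, Sqle, Stard4, Abcg1, Scd1, Scd2 and Fads1.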

Additional observations from a re-analysis of the deposited data

Results flagged for a closer look

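Several genes differed in opposite directions in 2 comparisons and the counting intervals of both excluded a ratio of 1. The difference between the comparisons was not tested, as each rests on 1 library per condition.

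In log2 of Brg1-expressing over Brg1-deleted cells, Idi1 was at -0.54 in mosaic females and at 1.36 in rKO1 mice after TAM. Nsdhl was at -0.38 and 0.77 and Dhcr7 at -0.23 and 0.82 in the same pair of comparisons. Abcg1 was at 0.10 and -0.64 and Fasn at 0.42 and -0.27, so that these 2 were higher in Brg1-expressing mosaic cells and lower in reexpressed rKO1 cells. Scaled by total reads, Abcg1 was at -0.03 in mosaic females and no longer opposed.

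Between total Treg cells after TAM and aTreg cells, Srebf2 was at 0.84 and -0.29, Acat2 at 0.26 and -0.28, Scd2 at 0.40 and -0.39 and Fads1 at 0.44 and -0.45. In aTreg cells these are ratios of the library labelled Brg1-reexpressed to that labelled Brg1-deleted, between which Smarca4 went against the labels. Scaled by total reads, Acat2 was at -0.09 in total Treg cells and no longer opposed. That scaling moved the median of all genes there by -0.36, close in size to the 0.40 of Scd2 and the 0.44 of Fads1. Intervals were not computed under it, so whether those of Scd2 and Fads1 still excluded a ratio of 1 is not given.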

How the results depend on the processing

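No paired analysis was possible because each condition had 1 library, and none could be left out. At a limit of 1.5-fold for a call, genes of the set called numbered 1 in mosaic cells, 15 in rKO1 after TAM, 6 in aTreg, 13 in untreated rKO1 against WT, 12 against Brg1-expressing mosaic cells, 7 in deleted rKO1 after TAM against untreated, 9 against deleted mosaic cells, 14 in reexpressed cells against WT, 20 against Brg1-expressing mosaic cells and 8 in WT against the latter. All genes called then numbered 2027, 3177, 1993, 3822, 3961, 1584, 3213, 3475, 4544 and 2909 in this order. With log2 of scaled FPKM plus 1, the set had 3 calls in rKO1 after TAM, 4 in untreated rKO1 against WT, 3 against Brg1-expressing mosaic cells, 1 in deleted rKO1 after TAM against untreated, 3 in reexpressed cells against WT and 2 in WT against Brg1-expressing mosaic cells, and all genes 337, 741, 311, 1044, 1155, 208, 813, 1126, 1446 and 543 in the order above. With no filter but a read in both libraries, 1 gene of the set was called in mosaic and 1 in aTreg cells, and all genes numbered 3935, 4868, 3410, 5290, 5750, 3525, 5068, 4943, 5769 and 4285. With a filter at 1 scaled FPKM all genes numbered 1407, 2267, 1345, 2872, 3062, 1400, 2481 and 2761 for the first 8, and 1880 in WT against Brg1-expressing mosaic cells. With FPKM as deposited, 3 of the set were called in this last comparison.

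Scaling by total reads and leaving out genes with over 10% shared exon bases were chosen after seeing the data. Total reads left 2 calls in rKO1 after TAM, 4 in untreated rKO1 against WT, 2 against Brg1-expressing mosaic cells and 4 in reexpressed cells against WT. This scaling moved the median of all genes by -0.36, -0.14, 0.31, 0.37, 0.14 and -0.15 and the higher share of calls from 56.0% to 22.9%, 65.9% to 49.4%, 54.8% to 78.0%, 47.3% to 77.9%, 54.6% to 67.5% and 56.9% to 45.8% in rKO1 after TAM, mosaic, untreated against WT and against mosaic, deleted rKO1 after TAM against deleted mosaic, and reexpressed against WT. In deleted rKO1 after TAM against untreated the share went from 48.8% to 35.4%. FPKM as deposited moved the median by 0.11 in WT against mosaic (share 44.8% to 58.5%) and in deleted rKO1 after TAM against deleted mosaic (54.6% to 64.8%). These alternatives could not test the direction of a called gene. A call needs a 2-fold difference, and scaling moved the median by at most 0.37 on the log2 scale. The other results, 156 planned and 50 added, included counts and medians of the mevalonate and sterol enzymes. The counts stayed within 1.5 times. The medians shifted by at most 1.5-fold, a rule that a change of sign near 0 can pass, as in mosaic cells. The causes were not tested beyond the limits and filters themselves. Few reads limit Fdps, Scd1, Fads2, Abca1 and Acaca.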
